A study of Mus musculus with 9 samples.

Results

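The genes described here are 10 genes of the NRF2 pathway, the main transcriptional defence of cells against oxidants and electrophiles, and include Hmox1, which encodes heme oxygenase 1. They were taken by gene name from a list chosen with earlier results of these data known. All 10 of them are among the 21951 genes of the table and among the 11295 that passed the filter on low counts. The material was BV2, a mouse microglial line made by immortalisation and labelled as wild type, and RNA was sequenced in 3 groups of 3 libraries. The triol-treated group, titled Radiation+5α-androst-3β, 5α, 6β-triol, received 10 µM of this synthetic steroid for 30 min and then a single X-ray dose of 10 Gy. Irradiated cells (Radiation+vehicle) received vehicle, 20% hydroxypropyl-β-cyclodextrin, before the same dose, and control cells (Control+vehicle) received vehicle without irradiation. Whether the triol was given in a vehicle is not in the labels. Their treatment fields place the last hydroxyl at 7β in replicate 2 and at 8β in replicate 3, and the titles, which say 6β in all 3, were followed. No group received triol alone, the labels do not say how long after the dose RNA was taken, and all libraries come from 1 cell line.

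NRF2, the product of Nfe2l2, is held in the cytoplasm by KEAP1, which passes it to a CUL3 ubiquitin ligase for degradation. Oxidants and electrophiles modify cysteines of KEAP1, NRF2 then accumulates, pairs with a small MAF protein and binds antioxidant response elements in genes for glutathione synthesis, thioredoxin reduction, quinone reduction, heme breakdown and NADPH supply. BACH1 occupies similar elements as a repressor, most prominently at Hmox1, and leaves them when heme binds it. Because NRF2 is controlled largely through its stability, the level of its transcript is not a measure of its activity. In microglia and other macrophages the pathway is known for limiting oxidative damage and inflammatory gene expression.

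Libraries held 17230866 to 18944051 counts in the triol-treated group, 13879062 to 15192203 in the irradiated group and 14118475 to 17705424 in the control group. The labels do not describe replicates as separate cultures. The p-values therefore reflect spread among these libraries only, and that spread may be technical. Of 10 markers of microglia and macrophages, Csf1r, Ptprc, Cd68 and Itgam were well detected, whereas P2ry12 averaged 0.663 and Tmem119 1.31 RPM (reads scaled to equal library totals) and C1qa had 0 to 6 reads per library. Their summed level was 1632 to 1676 RPM in triol-treated, 1623 to 1668 in irradiated and 2119 to 2209 in control libraries. The 20 hepatocyte markers summed to 13.4 to 13.6 RPM in triol-treated, 2.304 to 4.28 in irradiated and 1.91 to 3.78 in control libraries, and none of them was at 0 in all libraries. The 5 neuronal markers summed to 0.348 to 1.32 RPM in triol-treated, 0 to 0.0691 in irradiated and 0.0708 to 0.621 in control libraries, again with none at 0 throughout. The 5 astrocyte markers, of which Aqp4 was at 0 in every library, reached at most 1.003, 0.865 and 0.142 RPM in triol-treated, irradiated and control libraries, and the 5 oligodendrocyte markers lay between 5.20 and 8.08 RPM in all libraries. Reads of the mitochondrial genome made up 3.25% to 3.30% of counts in triol-treated, 3.33% to 3.46% in irradiated and 3.49% to 3.64% in control libraries. The part of these differences in the results below was not tested.

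Per exonic length, the 10 genes spanned a wide range. Levels between genes are given here in TPM, read counts divided by length and scaled to equal totals, over the merged exons of each gene, a scale that depends on which isoforms the cells use. In control cells the order ran from G6pdx (609 ± 11.8 TPM, mean ± SD, n = 3 here and below) through Nfe2l2 (363 ± 5.78), Srxn1 (350.4 ± 14.7), Hmox1 (252 ± 9.33), Txnrd1 (165 ± 5.12), Gclc (101 ± 8.09), Slc7a11 (94.0 ± 5.86), Gclm (40.5 ± 2.22) and Keap1 (18.2 ± 0.557) to Nqo1 (3.08 ± 0.358). The control libraries overlapped between the neighbours Nfe2l2 and Srxn1 and between Gclc and Slc7a11, and between no other neighbours. In irradiated cells Hmox1 stood next to the top, at 500.5 ± 18.1 TPM, below G6pdx at 585 ± 10.6 and above Srxn1 at 395 ± 20.2 and Nfe2l2 at 333 ± 6.89. The order in triol-treated cells was that of irradiated cells, with Hmox1 at 523 ± 18.4 TPM and Nqo1 again lowest at 9.52 ± 0.982 TPM, against 10.1 ± 1.17 TPM for Nqo1 in irradiated cells.

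**Figure D1:**
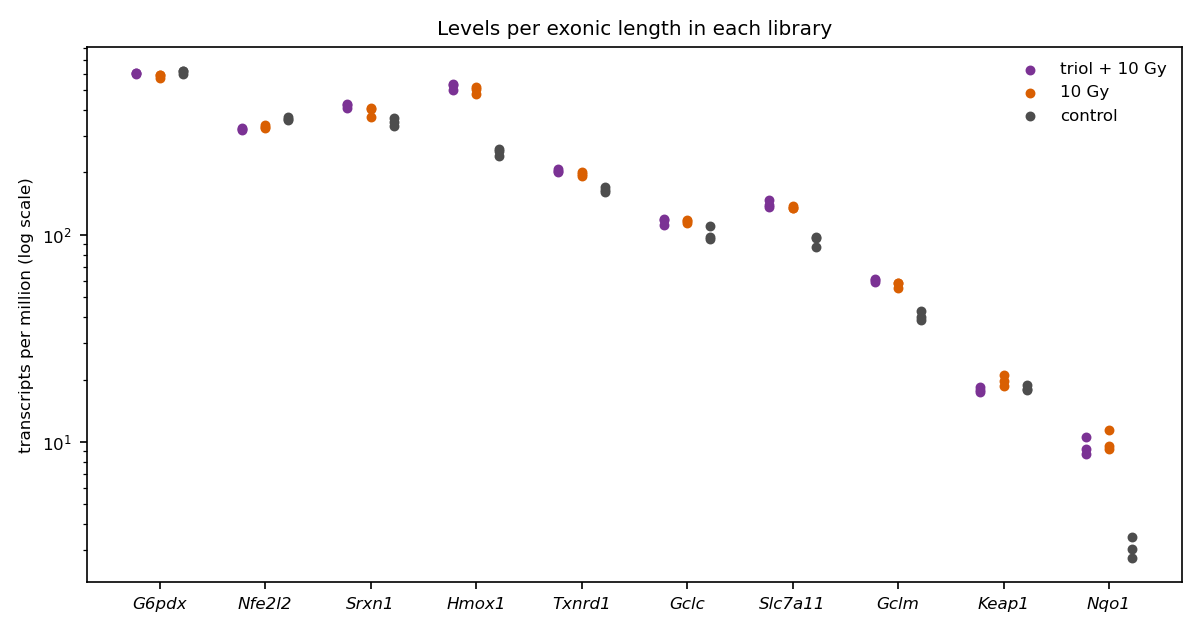
Level of each gene in TPM (log axis) in every library, with genes ordered by their mean in control cells. Hmox1 passes Srxn1 and Nfe2l2 in both irradiated groups, with 502 to 537 TPM in triol-treated and 481 to 516 TPM in irradiated libraries, against 241 to 259.5 TPM in control libraries.

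The promoters of these genes were searched for the core of the antioxidant response element, TGACNNNGC, and for the AP-1 site TGAGTCA, on both strands of the window from 250 bases before to 50 bases after the RefSeq start (GRCm38.p6). The 2 motifs can overlap, since a TGACNNNGC match that reads TCA in its free positions holds the AP-1 site as well, but no overlap occurred here. Of the 10 genes 8 had an entry, all but Hmox1 and Gclc, with 10 windows among them. Of all 32851 promoter windows 12.4% held TGACNNNGC. Of the 8 genes 5 held it, each in 1 window. It lay 240 bases before the start in Nfe2l2, 134 before it in Gclm, 92 before it at the second of 3 starts of Txnrd1, 57 before it in G6pdx, and 28 after it in Srxn1. Srxn1 also held TGAGTCA, 102 and 45 bases before its start, a motif found in 5.20% of all windows. The windows of Keap1, Nqo1 and Slc7a11 held neither motif, but bases outside the windows were not searched. The stretches around the matches are shown because genes that rose with radiation (Gclm, Txnrd1, Srxn1) and genes that fell (Nfe2l2, G6pdx) both carry the core. Each is written 5′ to 3′ on the strand of the gene, with the matches in capitals. The match in Nfe2l2 and those to TGAGTCA read forward, and the other matches are on the opposite strand.
Nfe2l2, chr2:75704850-75704913, minus strand: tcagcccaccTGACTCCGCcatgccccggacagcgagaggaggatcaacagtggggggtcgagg
Gclm, chr3:122245377-122245476, plus strand: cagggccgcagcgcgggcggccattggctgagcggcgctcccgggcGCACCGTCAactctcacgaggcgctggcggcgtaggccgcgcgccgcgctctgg
Txnrd1, chr10:82859068-82859167, plus strand: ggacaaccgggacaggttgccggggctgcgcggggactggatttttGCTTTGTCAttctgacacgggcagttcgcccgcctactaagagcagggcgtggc
Srxn1, chr2:152105274-152105573, plus strand: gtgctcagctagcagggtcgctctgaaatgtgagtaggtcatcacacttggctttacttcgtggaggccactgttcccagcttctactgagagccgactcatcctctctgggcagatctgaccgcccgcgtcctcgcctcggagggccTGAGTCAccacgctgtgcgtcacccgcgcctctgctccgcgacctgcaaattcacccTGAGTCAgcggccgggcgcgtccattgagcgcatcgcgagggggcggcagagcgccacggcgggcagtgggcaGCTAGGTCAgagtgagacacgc
G6pdx, chrX:74428884-74428983, minus strand: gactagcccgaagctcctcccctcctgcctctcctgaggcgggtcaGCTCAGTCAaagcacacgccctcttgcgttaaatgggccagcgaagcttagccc

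The first comparison asked how a dose of 10 Gy changed these genes. Of the 10 genes, 7 rose, 2 fell and 1 did not pass the test. Hmox1 and Nqo1 rose most, 1.94-fold and 3.19-fold, Slc7a11 and Gclm rose 1.41-fold and 1.38-fold, and Txnrd1, Gclc and Srxn1 rose 1.16-fold, 1.12-fold and 1.1-fold. Nfe2l2 and G6pdx fell, to 0.896 and 0.938 of their control levels. Among all tested genes the test called 44.3%, with 22.1% higher and 22.2% lower. Libraries of the irradiated and control groups did not overlap for 8 of the 10 genes, against 50.7% of all tested genes. The median log2 fold change of the 10 genes was 0.19, against 0.0067 over all tested genes. Because the 10 genes were chosen with earlier results of these data known, their contrasts with all tested genes are a description only. In bulk RNA a change in every cell and a change in a part of the cells cannot be told apart. Values below are CPM, read counts scaled to equal library sizes after normalisation, in single libraries, in the order of replicates 1 to 3, followed by the log2 fold change with its standard error (SE) and the adjusted p of edgeR's quasi-likelihood test.

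The sensor pair came first. Nfe2l2, on chromosome 2 from 75675513 to 75704641 (GRCm38, minus strand), had 319.6, 325 and 321 CPM in triol-treated libraries, 329.6, 326 and 338 CPM in irradiated libraries, and 367, 375 and 367 CPM in control libraries. All 6 libraries that received radiation lay below all 3 control libraries, and the fall with radiation was small but well outside the spread (log2 −0.16, SE 0.03, adjusted p = 3.9e-05). Keap1, the NRF2 adaptor, on chromosome 9 from 21229730 to 21239361, had 21.4, 21.9 and 22.5 CPM in triol-treated, 23.0, 25.8 and 24.2 CPM in irradiated, and 23.0, 22.3 and 23.6 CPM in control libraries. The irradiated and control libraries overlapped, and the difference did not pass (log2 0.09, 95% interval −0.07 to 0.24, adjusted p = 0.38). Of the exonic bases of Keap1, 10.9% overlap Gm16754 on the opposite strand, which would matter if the counting ignored strand.

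Hmox1, which opens the heme ring to give biliverdin, carbon monoxide and iron, lies on chromosome 8 from 75093621 to 75100589 with 5 merged exons. It had 230.4, 242 and 246 CPM in triol-treated libraries, 232, 237 and 219.8 CPM in irradiated libraries, and 120.4, 121 and 113 CPM in control libraries. All 6 irradiated libraries, with or without triol, lay far above all 3 control libraries, with no value in between. The log2 fold change with radiation was 0.96 (SE 0.04, adjusted p = 2.6e-23) and lay between 0.92 and 0.99 under every alternative run. Nqo1, the quinone reductase often used as a readout of NRF2, on chromosome 8 from 107388225 to 107403206, was the scarcest of the 10 genes. It had 65, 62 and 82 reads in triol-treated, 57, 53 and 71 reads in irradiated, and 16, 22 and 22 reads in control libraries, which is 3.76, 3.53 and 4.31 CPM, 3.90, 3.78 and 4.64 CPM, and 1.155, 1.26 and 1.43 CPM. The lowest irradiated library held over 2 times the level of the highest control library. Its log2 fold change with radiation, 1.67 (SE 0.23, adjusted p = 6.6e-08), was the largest of the 10 and the least precise, with a 95% interval from 1.22 to 2.13.

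**Figure D2:**
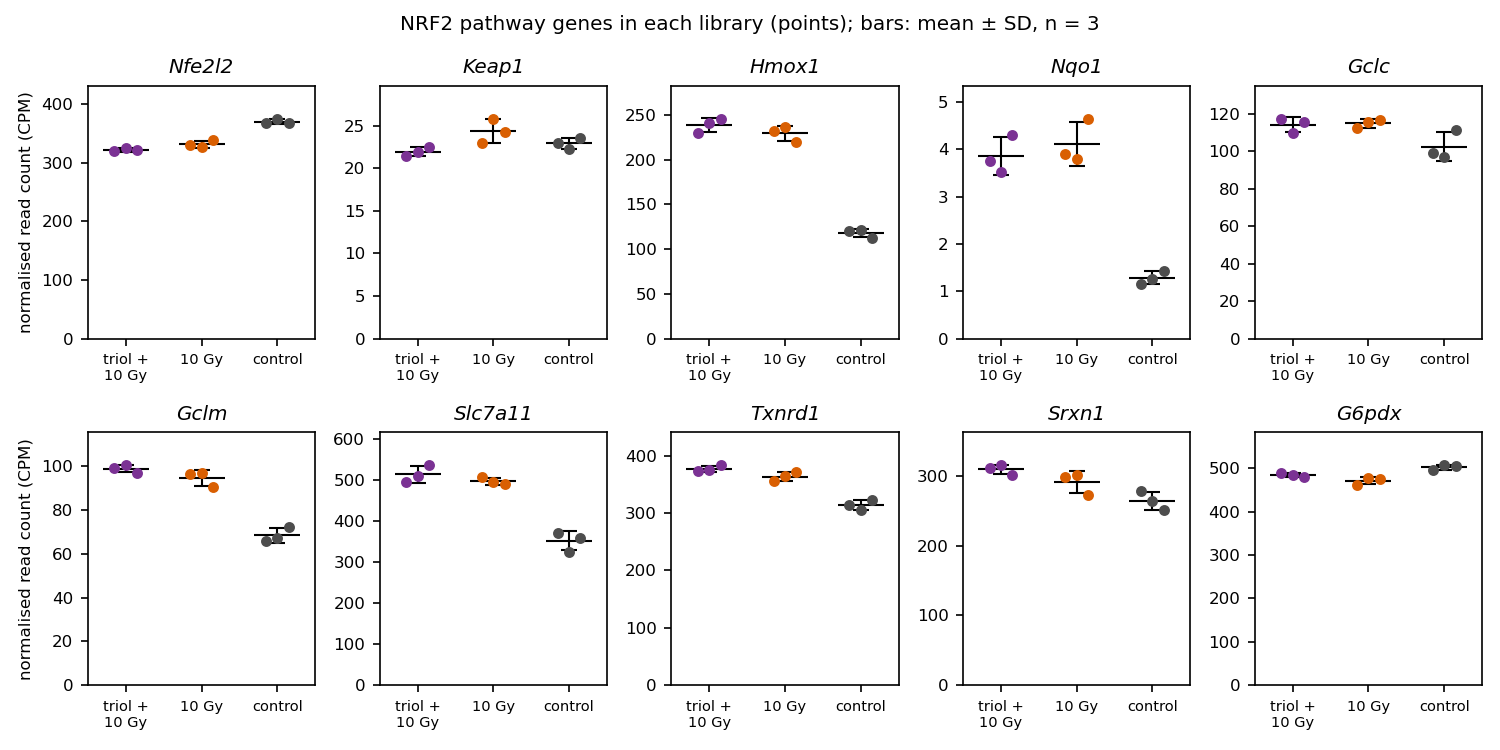
Normalised read count (CPM, axes from 0) of each gene in every library (points), with mean ± SD over 3 libraries (bars), for triol-treated irradiated, irradiated and control cells. The step of Hmox1, Nqo1, Gclm and Slc7a11 lies between control cells and both irradiated groups, with 230 ± 8.84 CPM for Hmox1 in irradiated and 118 ± 4.77 CPM in control cells.

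Glutathione synthesis depends on cystine brought in by Slc7a11, the transport subunit of the cystine-glutamate exchanger, and on glutamate-cysteine ligase, formed by the catalytic subunit Gclc and the modifier subunit Gclm. Slc7a11, on chromosome 3 from 49892526 to 50443614, had 495, 508 and 534 CPM in triol-treated, 505, 493 and 488 CPM in irradiated, and 369, 325 and 359 CPM in control libraries. Gclm, on chromosome 3 from 122245557 to 122270732, had 99.3, 100.4 and 97.1 CPM in triol-treated, 96.7, 96.8 and 90.5 CPM in irradiated, and 65.7, 67.3 and 72.1 CPM in control libraries. Neither gene overlapped between irradiated and control libraries. With radiation Slc7a11 rose by 0.50 on the log2 scale (SE 0.04, adjusted p = 5.5e-14) and Gclm by 0.47 (SE 0.05, adjusted p = 3.8e-11). Of the exonic bases of Gclm, 3.88% overlap Gm6061 on the same strand and 4.71% overlap Gm17494 on the opposite strand. Gclc, on chromosome 9 from 77754535 to 77794485, had 117, 109 and 115 CPM in triol-treated, 112, 115 and 117 CPM in irradiated, and 99.1, 96.6 and 111 CPM in control libraries. Control replicate 3 reached nearly the lowest irradiated library, and the rise was 0.17 (SE 0.05, adjusted p = 0.0025). The 95% intervals of the 2 ligase subunits, 0.08 to 0.26 for Gclc and 0.37 to 0.56 for Gclm, did not overlap, but the difference between them was not tested.

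Txnrd1 encodes the cytosolic thioredoxin reductase, a selenoenzyme, and Srxn1 encodes sulfiredoxin, which restores overoxidised peroxiredoxins. Txnrd1, on chromosome 10 from 82833951 to 82897712, had 374, 376 and 383 CPM in triol-treated, 356, 364 and 371 CPM in irradiated, and 314, 305 and 323 CPM in control libraries. Irradiated libraries all lay above control libraries (log2 0.21, SE 0.03, adjusted p = 4.3e-07). Srxn1, on chromosome 2 from 152105516 to 152111376, had 312, 316 and 302 CPM in triol-treated, 299.5, 302 and 274 CPM in irradiated, and 278, 265 and 252 CPM in control libraries. Irradiated replicate 3 lay within the control range, and the rise was the smallest of the 7 (log2 0.14, SE 0.04, adjusted p = 0.0023).

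G6pdx encodes glucose-6-phosphate dehydrogenase, which starts the pentose phosphate pathway and supplies NADPH to both the glutathione and the thioredoxin systems. On chromosome X from 74409483 to 74429194, it had 488, 486 and 479 CPM in triol-treated, 463, 477 and 476 CPM in irradiated, and 496, 507 and 506 CPM in control libraries. It fell with radiation by 0.09 on the log2 scale (SE 0.03, adjusted p = 0.0091), and the call was lost with upper quartile scaling (−0.06, adjusted p = 0.077). Of its exonic bases, 13.6% overlap Ikbkg on the opposite strand, and its retrocopy G6pd2 had 1 to 7 reads per library.

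**Figure D3:**
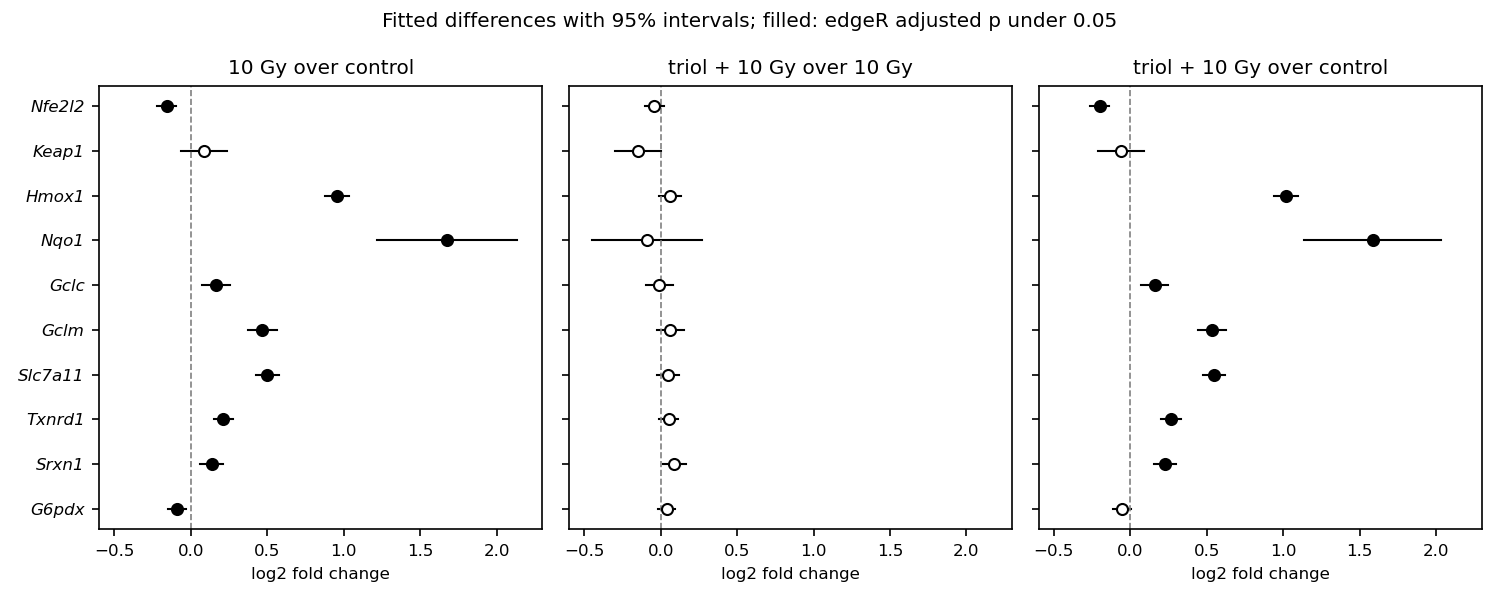
Fitted log2 fold change of each gene with its 95% interval in the 3 comparisons; filled points have an edgeR adjusted p under 0.05. With radiation 7 genes lie above 0 and 2 below it as filled points, triol-treated against irradiated cells shows 0 filled points, and triol-treated against control cells shows 8. Over all tested genes 44.3%, 0.106% and 43.3% were called in these 3 comparisons, in the same order.

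The second comparison asked whether triol given before irradiation changed these genes in irradiated cells. None of the 10 genes passed edgeR's test, in either direction. DESeq2 gave an adjusted p to 7 of them, all but Keap1, Nqo1 and Gclm, and none of the 7 passed. Over all tested genes 0.106% were called, with 0.0974% higher and 0.00885% lower. At an unadjusted p under 0.05 there was 1 gene of the 10, Srxn1, and 7.66% of all tested genes. Triol-treated cells had 1.06-fold the Srxn1 level of irradiated cells (log2 0.09, 95% interval 0.02 to 0.16, adjusted p = 0.54, and 0.38 to 0.94 over the alternatives). Without irradiated replicate 3, the lowest of its group for this gene, the log2 difference was 0.04 (adjusted p = 0.92). Keap1 had the lowest value (log2 −0.15, interval −0.30 to 0.0029, adjusted p = 0.66). For Hmox1 the difference was 0.06 (interval −0.01 to 0.13), for Slc7a11 0.05 (−0.02 to 0.12), for Gclm 0.06 (−0.02 to 0.15) and for Txnrd1 0.05 (−0.0092 to 0.12). For Gclc it was −0.0094 (−0.10 to 0.08), for Nfe2l2 −0.04 (−0.10 to 0.02), for G6pdx 0.04 (−0.02 to 0.10) and for Nqo1 −0.09 (−0.45 to 0.27), the widest of the intervals.

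Although no gene passed, the triol-treated and irradiated libraries did not overlap for 6 of the 10 genes, against 13.2% of all tested genes. Among the 65 tested further genes of the pathway, described below, they did not overlap for 11, or 16.9%. Gclm, Txnrd1, Srxn1 and G6pdx lay higher in each triol-treated library than in any irradiated one, and Nfe2l2 and Keap1 were lower. The margins were narrow. For Txnrd1 the lowest triol-treated library had 374 CPM and the highest irradiated library 371 CPM, and for Nfe2l2 the highest triol-treated library had 325 CPM and the lowest irradiated library 326 CPM. The median log2 difference of the 10 genes was 0.04, against 0.0016 over all tested genes. The hepatocyte and neuronal markers given above were also higher in triol-treated libraries, at summed levels below those of any of the 10 genes but Nqo1, and their part in these values was not tested.

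The third comparison, triol-treated irradiated against control cells, shares its control libraries with the first and its triol-treated libraries with the second. Here 7 genes rose and 1 fell, where the test called 43.3% of all tested genes, with 21.5% higher and 21.7% lower. Libraries did not overlap for 8 of the 10 genes, against 51.1% of all tested genes, and 49.8% of all tested genes had an unadjusted p under 0.05. The log2 fold changes stood beside those of irradiation alone as 1.02 with triol and 0.96 without it for Hmox1, 1.59 and 1.67 for Nqo1, 0.55 and 0.50 for Slc7a11, and 0.53 and 0.47 for Gclm. For Txnrd1 they were 0.27 with triol and 0.21 without it, for Srxn1 0.23 and 0.14, for Gclc 0.16 and 0.17, and for Nfe2l2 −0.20 and −0.16. The rise of Gclc in triol-treated cells (adjusted p = 0.0038) was not called without control replicate 2 (log2 0.11, adjusted p = 0.076). G6pdx, which fell with irradiation alone, did not pass in triol-treated cells (log2 −0.05, interval −0.11 to 0.0046, adjusted p = 0.13), and its values in the second comparison show no difference past the threshold between the 2 irradiated groups. Keap1 did not pass either (log2 −0.06, interval −0.21 to 0.09).

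The rest of the pathway was taken from a list of 75 further genes in 7 classes, of which 65 passed the filter on low counts. This list too was chosen with earlier results of these data known. With radiation 23 rose, or 35.4% of the 65, 14 fell, or 21.5%, and 28 did not pass, against 22.1% higher and 22.2% lower over all tested genes. Their median log2 fold change was 0.04. With upper quartile scaling 27 of 65 rose and 9 fell, where 2919 of all 11295 tested genes rose and 2116 fell. Without control replicate 3, 18 of 67 tested rose and 15 fell, where 2351 of all 11500 tested genes rose and 2490 fell. Between triol-treated and irradiated cells edgeR called 0 of the 65, with 5 at an unadjusted p under 0.05, against 7.66% of all tested genes, and a median of 0.0051. DESeq2 gave an adjusted p to 32 of the listed genes there and called 0 of them. Values below are log2 fold changes of irradiated over control cells. Called genes named beyond the rule for named genes are Bach1, Crebbp, Nfe2l1, Syvn1, Slc48a1, Fech, Ftl1, Prdx3, Prdx5, Taldo1, Gsr, Gpx1 and Gstm1, and they were chosen after their values were seen.

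Among 17 tested regulators 4 rose, or 23.5%, and 5 fell, or 29.4%, against 22.1% higher and 22.2% lower over all tested genes. Mafk and Mafg, genes for small MAF partners of NRF2, went in opposite directions, with Mafk up by 0.19 (SE 0.07) and Mafg down by 0.19 (SE 0.04). Mafk had 38.6 ± 3.003 CPM in irradiated and 33.8 ± 0.682 CPM in control cells, and Mafg had 127 ± 5.19 CPM in irradiated and 145 ± 7.36 CPM in control cells. Bach1, the repressor of Hmox1, rose by 0.13. Sqstm1, which encodes p62, an autophagy receptor that sequesters KEAP1, rose by 0.16 and was the most abundant regulator, with 1081 ± 35.3 CPM in irradiated and 965 ± 40.7 CPM in control cells. Crebbp, a coactivator, rose by 0.15. Btrc, a subunit of a second ligase for NRF2, fell by 0.17, Nfe2l1, the relative of NRF2 that controls proteasome genes, fell by 0.13, and Syvn1, which encodes another ubiquitin ligase, fell by 0.15. The call of Mafk was lost with DESeq2 and without control replicate 3, irradiated replicate 1 or irradiated replicate 2 (adjusted p up to 0.18). That of Btrc was lost with upper quartile scaling, with DESeq2 and without control replicate 1, irradiated replicate 1 or irradiated replicate 2 (up to 0.16). That of Nfe2l1 was lost without control replicate 1 or irradiated replicate 3 (up to 0.092), and that of Syvn1 with upper quartile scaling and without control replicate 2 or irradiated replicate 3 (up to 0.074).

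Around heme and iron, 2 of 9 tested genes rose, or 22.2%, and 4 fell, or 44.4%, against 22.1% and 22.2% over all tested genes. Slc40a1, which encodes ferroportin, the only known iron exporter of mammalian cells, rose by 0.40 (SE 0.05), with 80.6, 78.5 and 77.6 CPM in irradiated and 57.8, 60.4 and 61.0 CPM in control libraries. Slc48a1, a heme transporter of endosomes and lysosomes, rose by 0.17. Both biliverdin reductase genes fell, Blvrb by 0.25 (SE 0.06) and Blvra by 0.19 (SE 0.04). Blvra had 118, 114 and 109.98 CPM in irradiated and 126, 133 and 131 CPM in control libraries, and Blvrb had 54.5, 54.1 and 49.9 CPM in irradiated and 67.0, 61.2 and 60.0 CPM in control libraries, so neither overlapped between the groups. Fech, which inserts iron to make heme, fell by 0.15. Ftl1, ferritin light chain, which has many processed copies, fell by 0.14, and by 0.09 without control replicate 2 (adjusted p = 0.033). Fth1, ferritin heavy chain, was the most abundant gene of the list, with 4586 ± 59.5 CPM in irradiated and 4739 ± 168 CPM in control cells, and did not pass (−0.05, adjusted p = 0.16), though it did without control replicate 3 (−0.08, adjusted p = 0.010). The call of Fech was lost with upper quartile scaling and without control replicate 3 or irradiated replicate 2 (up to 0.070).

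In the glutathione class 6 of 11 tested genes rose, or 54.5%, and 0 fell. Over all tested genes 22.1% were higher and 22.2% lower. Slc3a2, the heavy chain that carries Slc7a11 to the membrane, rose by 0.34 (SE 0.04), with 223 ± 5.46 CPM in irradiated and 176 ± 10.1 CPM in control cells. Gstp1, a glutathione transferase, rose by 0.28 (SE 0.05), and its close paralog Gstp2 had 0 to 4 reads per library. Abcc1, which exports glutathione conjugates, rose by 0.17, as did the glutathione peroxidase gene Gpx1, and the glutathione reductase gene Gsr rose by 0.15. Gstm1, a transferase in a family of close paralogs, rose by 0.12, a call lost with DESeq2 and without control replicate 2, control replicate 3, irradiated replicate 2 or irradiated replicate 3 (up to 0.105). In the thioredoxin class 4 of 9 tested genes rose, or 44.4%, and 1 fell, or 11.1%. The peroxiredoxin genes Prdx6 and Prdx1 rose by 0.41 (SE 0.04) and 0.24 (SE 0.03), with 1116 ± 31.7 CPM of Prdx1 in irradiated and 945 ± 9.28 CPM in control cells. Txnip, an inhibitor of thioredoxin, rose by 0.18. The mitochondrial peroxiredoxin gene Prdx3 rose by 0.12 and Prdx5 fell by 0.14. The call of Prdx3 was lost with DESeq2 and without control replicate 2, control replicate 3 or irradiated replicate 2 (up to 0.19), and its value was 0.08 without irradiated replicate 2. That of Prdx5 was lost with upper quartile scaling, with DESeq2 and without control replicate 1, control replicate 2, irradiated replicate 1 or irradiated replicate 3 (up to 0.17).

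Of 6 tested NADPH supply genes, 1 rose, or 16.7%, and 3 fell, or 50%, against 22.1% higher and 22.2% lower over all tested genes. Pgls, the lactonase that follows glucose-6-phosphate dehydrogenase, fell by 0.41 (SE 0.06), with 44.1, 49.98 and 50.6 CPM in irradiated and 63.2, 62.6 and 66.5 CPM in control libraries. The cytosolic isocitrate dehydrogenase gene Idh1 fell by 0.37 (SE 0.04), and Taldo1, transaldolase, fell by 0.13. Me1, malic enzyme, rose by 0.18 (SE 0.04). Tkt, transketolase, the most abundant, had 659 ± 14.01 CPM in irradiated and 636 ± 15.1 CPM in control cells and did not pass (0.05, adjusted p = 0.17), though it did with upper quartile scaling (0.08, adjusted p = 0.027). All 3 tested genes for removal of superoxide and hydrogen peroxide rose, Cat, catalase, by 0.31 (SE 0.03), Sod2, the mitochondrial dismutase, by 0.23 (SE 0.05) and Sod1, the cytosolic one, by 0.18 (SE 0.04). Of 10 tested detoxification genes, 3 rose, or 30%, and 1 fell, or 10%. Osgin1 rose by 0.28, the esterase gene Esd by 0.13 and the aldo-keto reductase gene Akr1b8 by 0.14, and Akr1a1, another aldo-keto reductase gene, fell by 0.08. Of these Esd alone kept its call under every alternative. That of Osgin1 was lost with DESeq2 and without control replicate 3 (up to 0.074). That of Akr1b8 was lost with DESeq2, with no filter on low counts and without control replicate 2, control replicate 3, irradiated replicate 1 or irradiated replicate 2 (up to 0.25). That of Akr1a1 was lost with upper quartile scaling, with only the 2 groups fitted and without control replicate 2, irradiated replicate 1 or irradiated replicate 3 (up to 0.17), and its value was −0.05 with upper quartile scaling.

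**Figure D4:**
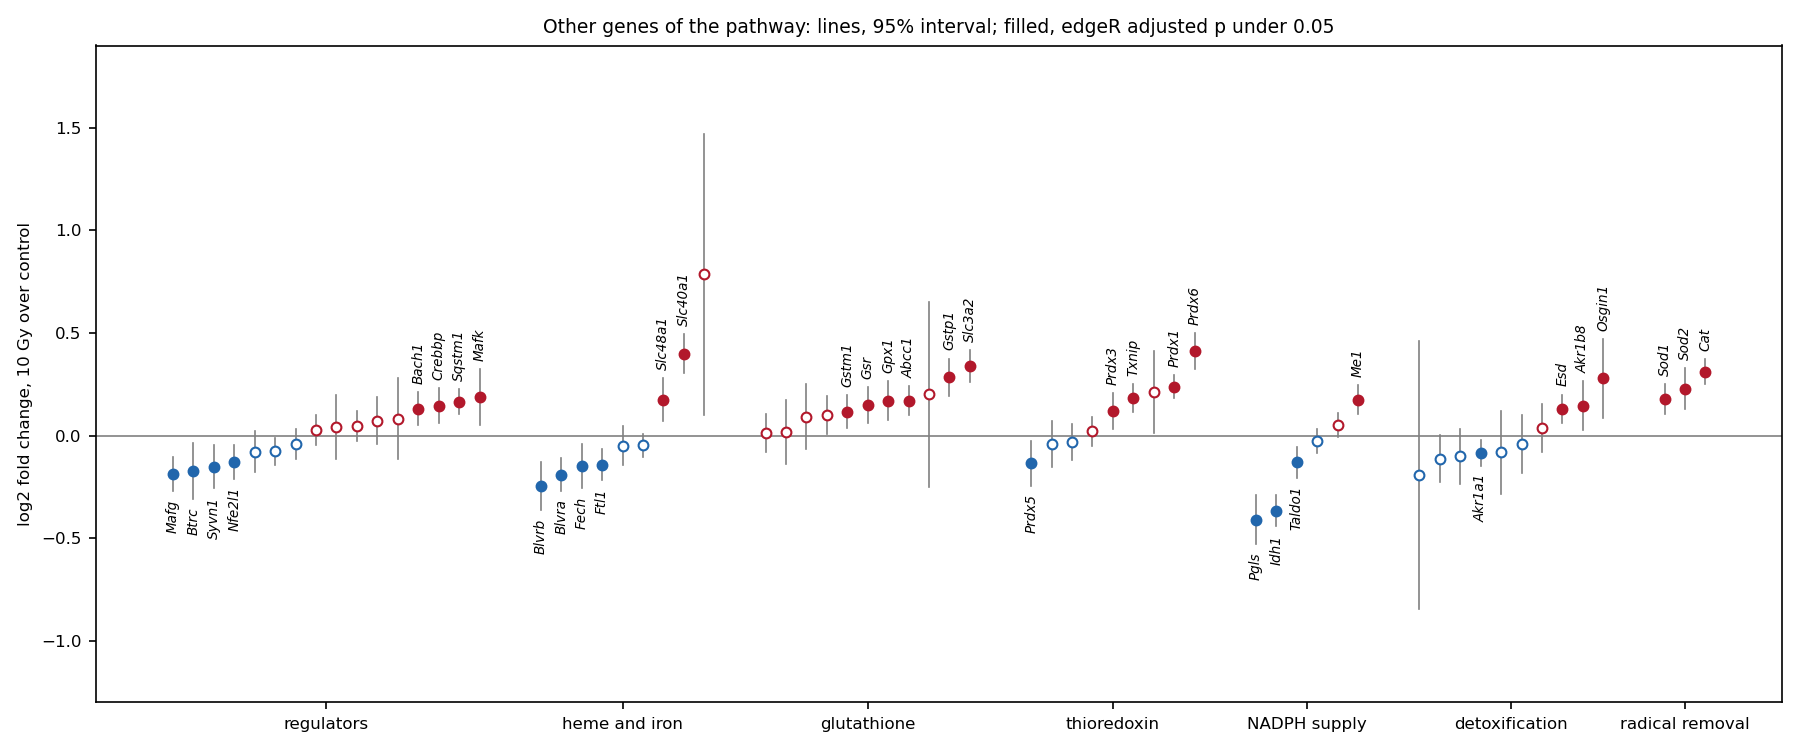
Fitted log2 fold change of irradiated over control cells for tested further genes of the pathway, by class, with 95% intervals; filled points carry the gene name and have an edgeR adjusted p under 0.05, red above 0 and blue below. The glutathione class holds, of 11 points, 6 filled above 0 and 0 below it, and NADPH supply, of 6 points, 1 above and 3 below. Over all tested genes 22.1% were called higher and 22.2% lower.

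The genes with the pattern most like that of Hmox1 over the 9 libraries, among 8694 tested genes with at least 10 CPM on average, were Rnf213, Jpt1, Cpt1a, Cxcl10 and Rtp4, with Pearson r of 0.999, 0.998, 0.998, 0.997 and 0.996 on log2 CPM. Rnf213 and Rtp4 are known as interferon-induced genes, Cxcl10 encodes a chemokine that interferons also induce, and Cpt1a brings fatty acids into mitochondria. Their log2 fold changes with radiation differed widely in size, 1.42 for Rnf213, 0.26 for Jpt1, 0.98 for Cpt1a, 2.72 for Cxcl10 and 2.38 for Rtp4. Most like Slc7a11 were Chtop, the amino acid transporter gene Slc7a6 and Slc39a14, a zinc and iron transporter gene, with r of 0.994, 0.99 and 0.988. Most like Nfe2l2 were the splicing factor gene Wbp11, Ext2, which acts in heparan sulfate synthesis, and Pdk1, a kinase of pyruvate dehydrogenase, with r of 0.993, 0.988 and 0.987. These values are a description. The libraries fall into control and irradiated sets, and any gene with a clean step between them has a high r.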

How the data were processed

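RNA was sequenced from 9 libraries of BV2 cells. Values are the raw gene-level read counts that the authors deposited, without normalisation, made per the submitters' processing notes with fastp 0.18.0, FastQC, STAR 2.7.1a and featureCounts of Subread 1.6.3 on GRCm38. Not given in the sources used here: annotation release, strand setting and treatment of multi-mapping reads. Of the 10 genes Nqo1, with 16 to 82 reads per library, had the widest intervals.

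Groups and replicate numbers came from the sample titles. Genes passing filterByExpr of edgeR were tested with its quasi-likelihood F test (edgeR 4.0.16, R 4.3.3, TMM, robust, 1 fit over 9 libraries, 6 residual degrees of freedom). P-values, all two-sided, were adjusted over 11295 genes by Benjamini-Hochberg, and the threshold was 0.05. The biological coefficient of variation was 3.18%. CPM is after TMM and RPM is per library total. Coordinates and exonic lengths came from GENCODE M21 and promoters from RefSeq. Alternatives were RLE and upper quartile scaling, DESeq2 1.42.0, no filter, 2 groups only, a replicate block and each library left out.

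The members and lists were chosen with earlier results of these data known. Named genes of the further list were, per class, the 3 called genes with the largest change under radiation, the most abundant one, and any called for triol. Of the called regulators 1 is counted but not reported here or drawn.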

Additional observations from a re-analysis of the deposited data

How the results depend on the processing

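Under the 12 alternatives (other scalings, DESeq2, no filter, 2 groups only, the replicate block, each library left out) the number of the 10 genes called stayed at 8 or 9 for irradiated against control cells, at 0 for triol-treated against irradiated cells (DESeq2 gave an adjusted p to 7 of the 10 there) and at 7 or 8 for triol-treated against control cells. Of the 120 single-gene values for radiation, 119 kept direction and call, the exception being G6pdx with upper quartile scaling. Between triol-treated and irradiated cells Nqo1 ran from −0.18 to 0.010 and Gclc from −0.033 to 0.017 when single libraries were left out, so neither has a stable sign. Of the 37 further genes called for radiation, 26 kept the call throughout, and 30 to 38 were called per alternative. The runs for single further genes were added after the data were seen. Upper quartile scaling moved the calls over the whole table for radiation to 2919 higher and 2116 lower, against 2498 and 2505. The 12 genes called over the whole table for triol became 20 with DESeq2, 36 with no filter, 22 with only the 2 groups fitted, 22 with the replicate block, and 6 to 9 with 1 library left out. Same-numbered libraries did not deviate together (correlations of −0.05 to 0.04). These correlations cannot tell whether same-numbered samples were handled together, which the labels do not say. The replicate block changed no call among the 10 genes. Depth limits Nqo1, with 16 to 22 reads per control library.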
